A study of Homo sapiens with 8 samples.

Results

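This account describes histone H3 lysine 27 acetylation (H3K27ac), a mark of active promoters and enhancers, at the genes of 9 proteins that receive and relay interferon signals: STAT2, STAT3, JAK1, JAK2, TYK2, IFNAR1, IFNAR2, IFNGR1 and IFNGR2. A peak was taken for a gene when the deposited table matched its transcription start to the peak, when the table named that start as the nearest one upstream or downstream at no more than 50 kb, or when the peak overlapped the gene on GRCh38. This gave 35 of the 31961 peaks of the table. The table matched a start of one of the 9 genes to 8 of the 35, and 23 overlapped a gene while 12 lay outside. Links are by position alone. JAK1 had 9 peaks, IFNGR2 7, STAT3 6, IFNAR2 4, IFNAR1 3, STAT2, TYK2 and IFNGR1 2 each, and JAK2 1. A single peak counted for both IFNAR1 and IFNGR2.

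The 8 libraries came from 4 clonal lines of CFPAC1, an established cell line of human pancreatic ductal adenocarcinoma, precipitated with the Abcam antibody ab4729. Control clones 1 and 4 were isolated after infection with the lentiCRISPRv2 plasmid, and the labels name no guide for them. Clones 11 and 13, called IRF1-guide clones here, received that plasmid with wild-type Cas9 and a guide RNA against IRF1, which encodes an interferon-regulated transcription factor. A library of each clone was made untreated (UT) and another after 2 hours of hIFNb, taken here to be human interferon beta, giving 4 groups of 2 clones. Each clone is a single isolate, and a clone's own history cannot be told apart from its guide with 2 clones per genotype. The labels say what the guide targets, not whether IRF1 protein was lost, and H3K27ac does not measure that. The p-values below rest on how much libraries of unlike clones in a group differ.

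Interferons of type I bind a receptor of the chains IFNAR1 and IFNAR2, and interferon gamma binds a receptor of IFNGR1 and IFNGR2. The chains hold Janus kinases (JAKs) on their inner side: TYK2 on IFNAR1, JAK1 on IFNAR2 and IFNGR1, and JAK2 on IFNGR2. The kinases phosphorylate STAT proteins, which enter the nucleus. STAT2 joins IRF9 in the complex ISGF3, which binds the interferon-stimulated response element (ISRE), while STAT dimers, STAT3 among them, bind the gamma-activated site (GAS). STAT3 is best known for signalling from cytokines of the interleukin-6 family.

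The sequences below are the 250 bases before annotated starts of STAT2, JAK1 and JAK2, whose promoter peaks rose with hIFNb, and of TYK2 and IFNAR1, whose promoter peaks did not pass the test. They were taken from RefSeq on GRCh38.p14 and are written 5′ to 3′ on the gene's own strand. Capitals mark GAAA or its reverse complement TTTC, the repeated unit of an ISRE.
STAT2, chr12:56360108-56360357, minus strand: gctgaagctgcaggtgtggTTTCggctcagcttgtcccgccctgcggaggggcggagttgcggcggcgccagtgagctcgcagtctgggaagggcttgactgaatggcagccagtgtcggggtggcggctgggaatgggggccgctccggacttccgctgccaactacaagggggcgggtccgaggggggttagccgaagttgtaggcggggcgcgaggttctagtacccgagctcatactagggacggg
JAK1 first start, chr1:65067747-65067996, minus strand: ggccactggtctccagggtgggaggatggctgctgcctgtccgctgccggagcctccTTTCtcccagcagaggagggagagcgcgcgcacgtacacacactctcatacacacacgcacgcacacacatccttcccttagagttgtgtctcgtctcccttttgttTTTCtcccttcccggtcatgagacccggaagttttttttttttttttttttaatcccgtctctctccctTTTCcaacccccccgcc
JAK1 internal start, chr1:64966550-64966799, minus strand: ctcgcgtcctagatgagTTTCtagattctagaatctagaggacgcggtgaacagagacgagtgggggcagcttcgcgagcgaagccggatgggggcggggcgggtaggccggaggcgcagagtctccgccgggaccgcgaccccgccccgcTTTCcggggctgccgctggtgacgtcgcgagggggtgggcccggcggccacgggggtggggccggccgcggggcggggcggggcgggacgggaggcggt
JAK2, chr9:4984140-4984389, plus strand: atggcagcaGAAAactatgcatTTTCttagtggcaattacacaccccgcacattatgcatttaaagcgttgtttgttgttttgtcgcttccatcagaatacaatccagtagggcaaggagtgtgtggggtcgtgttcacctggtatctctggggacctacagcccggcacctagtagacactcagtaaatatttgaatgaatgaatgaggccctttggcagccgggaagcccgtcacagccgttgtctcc
TYK2, chr19:10380573-10380822, minus strand: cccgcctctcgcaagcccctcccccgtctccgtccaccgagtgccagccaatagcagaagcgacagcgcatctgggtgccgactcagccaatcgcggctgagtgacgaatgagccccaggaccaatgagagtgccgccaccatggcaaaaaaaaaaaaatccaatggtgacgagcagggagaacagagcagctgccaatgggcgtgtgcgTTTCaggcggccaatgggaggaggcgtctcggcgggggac
IFNAR1, chr21:33324145-33324394, plus strand: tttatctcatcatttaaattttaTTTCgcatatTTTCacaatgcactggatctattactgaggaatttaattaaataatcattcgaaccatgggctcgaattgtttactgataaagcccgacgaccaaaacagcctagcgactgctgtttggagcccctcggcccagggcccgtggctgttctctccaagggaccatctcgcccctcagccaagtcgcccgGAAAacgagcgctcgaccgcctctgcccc
An ISRE core (GAAA, then any 2 bases, then GAAA) was in none of the 15 RefSeq windows of 8 of the genes, searched on both strands from 250 bases before a start to 50 after it. Among all 35116 such windows 3.57% held one. A GAS core (TTCNNNGAA) was likewise in none of the 15, against 7.66% of all windows. The shorter unit GAAA alone, a search added after the data had been seen, is common: 82.6% of all windows held it within 250 bases of the start, with a median of 2 matches. The printed STAT2, JAK1 first-start, JAK1 internal and JAK2 sequences held 1, 3, 2 and 2. Those of TYK2 and IFNAR1, which did not pass, held 1 and 3. The printed JAK2 sequence is window 1 of that gene, and its windows 2, 3 and 4 held 1, 0 and 0. For comparison, the ISG15 window held GAAAGGGAAA and GAAACCGAAA, the SOCS1 window held GAAAGAGAAA, and the IRF9 window held the GAS core TTCTGGGAA. The IRF9 window held no ISRE core. Of the RSAD2 windows, window 1 held neither core and window 2 held the ISRE core as TTTCAGTTTC, on the other strand. The absence of these letters from a window says nothing of the rest of a peak, and promoter peaks here were 1783 to 7132 bp wide. IFNAR2 had no entry in the sequence table.

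Values are scores, the peak counts that the authors normalised and rounded to whole numbers. Their totals per library ran from 3277561 to 3460390. The 35 peaks had a median width of 3818 bp and a median mean score of 60.5, against 3550 bp and 47.4 for all peaks, and 13.2 against 13.7 per kb of peak. Promoter peaks covered the start of 8 of 9 genes. The exception was IFNGR2, whose nearest peak began 0.795 kb downstream of the gene start at 33402882 and is used in place of a promoter peak. The start in its RefSeq promoter window, at 33403413, lay closer to that peak, which began at 33403677. Per kb, the mean score over the 8 libraries was 27 at the IFNAR1 promoter, 21 at STAT3, 19.4 at STAT2, 17.3 at the IFNGR2 peak, 15.3 at TYK2, 13.4 at JAK2, 13.2 at IFNGR1, 12.9 at JAK1 and 11.6 at IFNAR2. The neighbouring levels of JAK2, IFNGR1, JAK1 and IFNAR2 lay close together. These means pool treated and untreated libraries. In JAK2 the scores of the whole peak, not per kb, ran from 31 in an untreated library to 113 in one with hIFNb. The cells bore the mark at ductal epithelial genes, with a peak at the start of 8 of 9 marker genes (EPCAM, KRT7, KRT8, KRT18, KRT19, MUC1, ELF3 and SOX9). KRT8 and KRT18 shared the same peak, and CDH1 had none. Of the markers of other cell types, the leukocyte gene LYZ had such a peak and PTPRC, CD3E, CD79A and SPI1 had none. Among 5 fibroblast genes 1 had a peak (COL1A1), and among 4 endothelial genes 1 (PECAM1). None of these marker peaks changed with hIFNb or differed between genotypes with hIFNb by the test. A change in score cannot tell more cells with the mark from more mark per cell.

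With hIFNb, H3K27ac rose at 7 of the 35 peaks and fell at none, over all 4 clones. These were the promoters of STAT2, JAK1 and JAK2, an internal start and a second internal peak of JAK1, a peak inside STAT3 and a peak at the downstream end of IFNGR2. None of the 4 receptor genes rose at its promoter, nor did TYK2 or STAT3, in this fit. The test was limma on log2(score + 1), with Benjamini-Hochberg adjustment over all 31961 peaks and a call at adjusted p under 0.05. Of all peaks 9.13% were called, 6.55% higher and 2.58% lower. Centring each library on its median gave 6 rises and 1 fall among the 35, the fall in JAK1. The median log2 change was 0.20 over the 35 peaks and 0.00 over all peaks. Changes above 0 were found at 22 of the 35, against 50.0% of all peaks. Fitting each clone as its own block, so that a treated library is set against the untreated one of the same clone, gave 11 rises and 4 falls among the 35, where 16.6% and 15.9% of all peaks rose and fell. Treated and untreated libraries did not overlap at 6 of the 7 called peaks, all higher, and at no other of the 35, against 7.22% of all peaks higher and 5.15% lower. Leaving out a single library kept the calls at the STAT2 and JAK1 promoters and at the JAK1 peak 114.4 kb into the gene, whichever library it was. The other 4 calls each depended on particular libraries, named below.

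**Figure D1:**
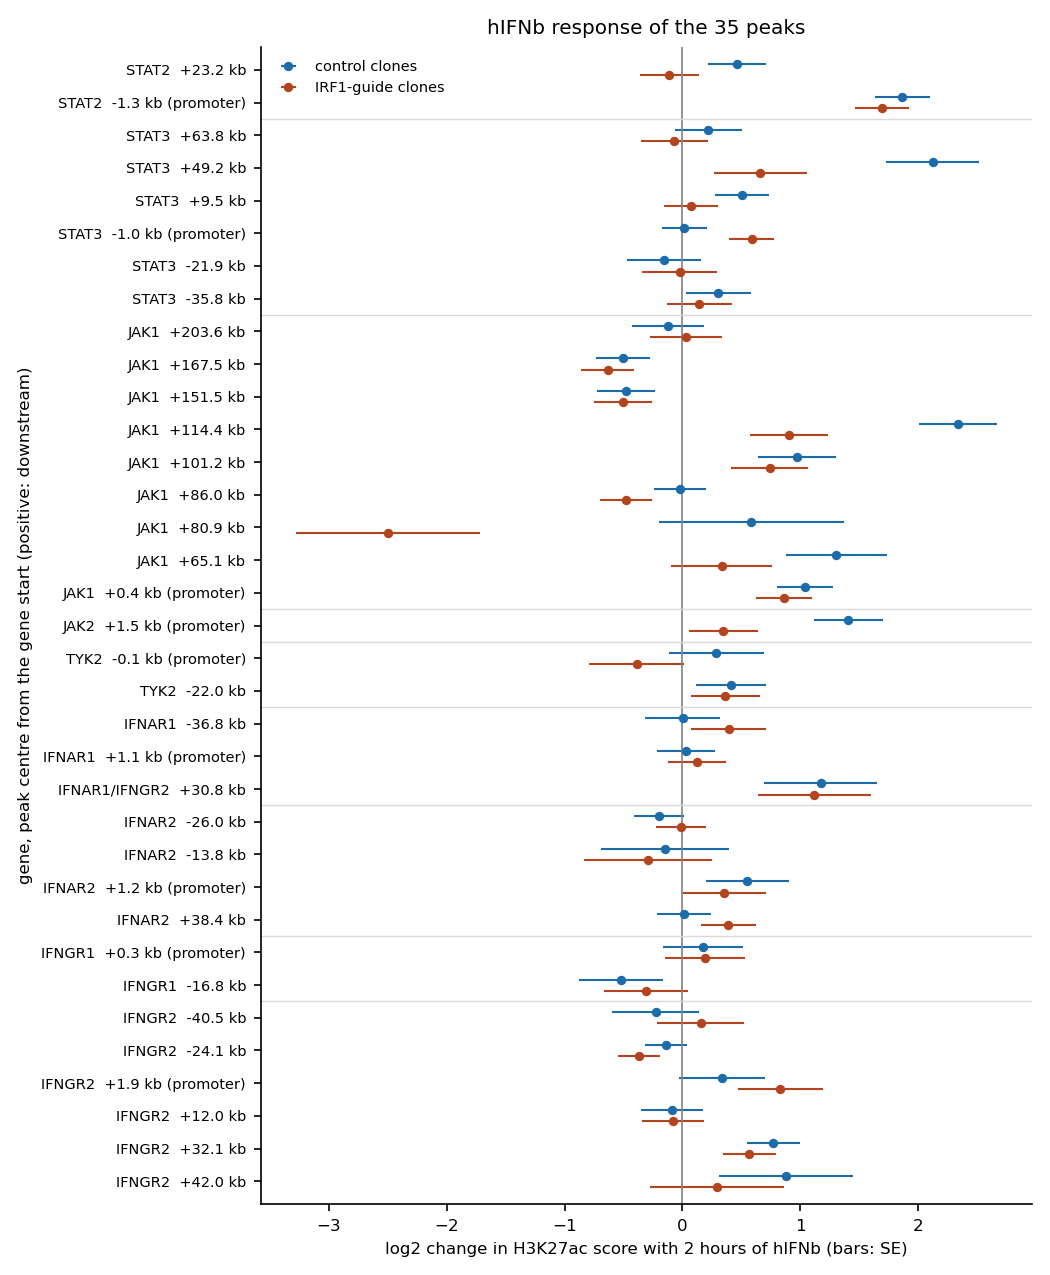
Log2 change in H3K27ac score with 2 hours of hIFNb at each of the 35 peaks (horizontal axis), in control clones (blue) and IRF1-guide clones (red), with bars of 1 SE; the vertical axis lists each peak by gene and by the distance of its centre from the gene start, and the IFNGR2 peak marked as promoter is the nearest peak to its start. The STAT2 promoter moved by 1.87 and 1.69 in the 2 kinds of clone, while the JAK1 peak at +114.4 kb moved by 2.34 and 0.90.

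STAT2, the transcription factor that pairs with IRF9, had the largest rise of the 35 peaks over all 4 clones, while in control clones alone the JAK1 peak at 114.4 kb and the STAT3 peak at 49.2 kb had larger log2 changes. Its gene lies on chromosome 12 from 56341597 to 56360107, on the minus strand, and its promoter peak runs from 56358105 to 56364639. The score was 57 and 52 in control clones 1 and 4 untreated and 188 and 215 with hIFNb. In IRF1-guide clones 11 and 13 it was 62 and 54 untreated and 223 and 161 with hIFNb. Every library with hIFNb was above every untreated one, and the clones of both kinds lay in the same range. The rise was 3.43-fold, or 1.78 ± 0.16 in log2 units (SE, limma, adjusted p = 0.000212). It was 1.87 ± 0.23 in control clones (limma, adjusted p = 0.00241) and 1.69 ± 0.23 in IRF1-guide clones (adjusted p = 0.00707). The call in IRF1-guide clones was lost without the library of clone 11 with hIFNb (limma, adjusted p = 0.0963) and with the 4 IRF1-guide libraries fitted alone (0.0934). The second peak of STAT2, downstream of the gene at the start of its neighbour PAN2 (chr12:56332604-56341181), scored from 104 to 177 and did not pass the test (0.18 ± 0.18, limma, adjusted p = 0.561). In control clones, where it scored 135 and 109 untreated and 177 and 159 with hIFNb, it passed with the clone as a block (limma, adjusted p = 0.0213).

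**Figure D2:**
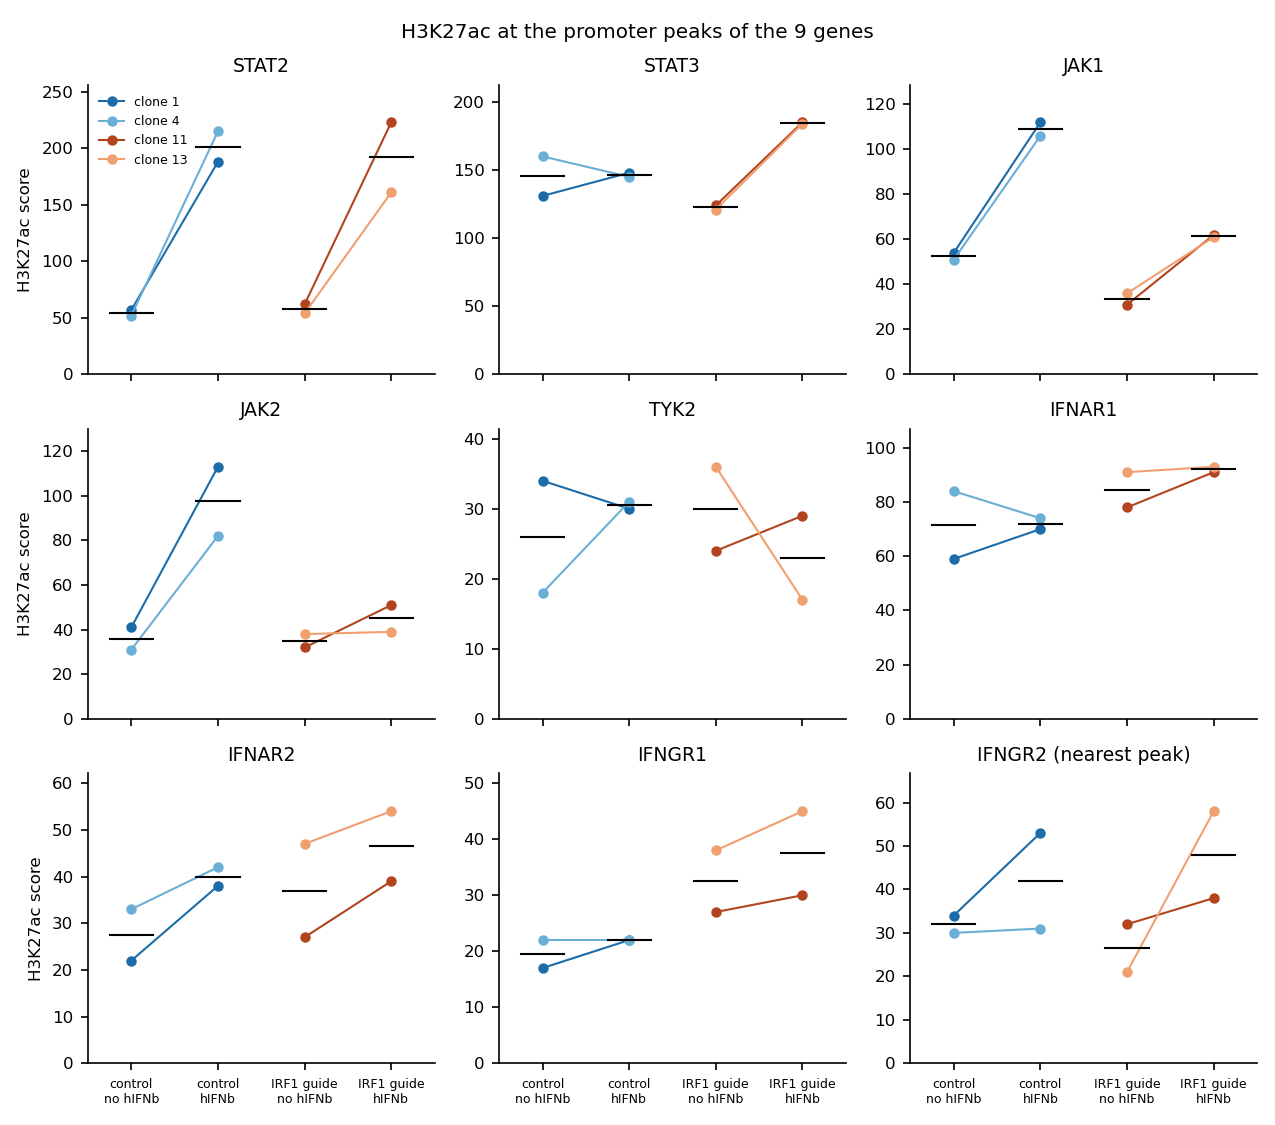
H3K27ac scores (vertical axes, each from 0) at the promoter peaks of the 9 genes, with the nearest peak for IFNGR2, in control and IRF1-guide clones without and with hIFNb; points joined by a line are 1 clone and black bars are means of 2 clones. STAT2 and JAK1 rose in all 4 clones, and JAK2 went to 113 and 82 in the control clones but 51 and 39 in the IRF1-guide clones.

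JAK1, the kinase shared by both interferon receptors, is the longest of the 9 genes at 234.5 kb (chromosome 1, 64833229 to 65067746, minus strand), and all of its 9 peaks overlap it. At its promoter peak (chr1:65064824-65069783) the score was 54 and 51 in control clones untreated and 112 and 106 with hIFNb. It was 31 and 36 in IRF1-guide clones untreated and 62 and 61 with hIFNb. The mark rose in each clone, and in IRF1-guide clones both values with hIFNb lay near those of untreated control clones. The rise over all clones was 1.93-fold, or 0.95 ± 0.17 (limma, adjusted p = 0.0065), with no overlap between treated and untreated libraries. In control clones it was 1.04 ± 0.24 (limma, adjusted p = 0.0336), a call lost when any 1 control library was left out (adjusted p from 0.123 to 0.178). It was also lost without clone 11 or clone 13 with hIFNb (0.0525 and 0.0521), after centring on the median (0.0514) and with the 4 control libraries fitted alone (0.0607). In IRF1-guide clones it was 0.86 ± 0.24 (limma, adjusted p = 0.147, and 0.00599 with the clone as a block).

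Inside JAK1, the peak centred 114.4 kb from the start (chr1:64949618-64956984) had the largest change of the 35 in control clones. It scored 28 and 25 in control clones untreated and 120 and 158 with hIFNb, and 35 and 28 in IRF1-guide clones untreated and 82 and 43 with hIFNb. Treated and untreated libraries did not overlap, and clone 13 had the smallest gain. The rise was 1.62 ± 0.24 over all clones (limma, adjusted p = 0.00235), 2.34 ± 0.33 in control clones (adjusted p = 0.00425) and 0.90 ± 0.33 in IRF1-guide clones (adjusted p = 0.294, and 0.01 with the clone as a block). The difference between these responses was -1.43 ± 0.47 (limma, adjusted p = 1). With the clone as a block its SE was 0.33 and it passed (limma, adjusted p = 0.0335), which no other of the 35 peaks did.

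A JAK1 peak 101.2 kb from the first start (chr1:64965186-64968001) holds the other two JAK1 starts of the RefSeq promoter table, at 64966936 and 64966549. It scored 14 and 24 in control clones untreated, 38 and 36 with hIFNb, 24 and 28 in IRF1-guide clones untreated and 43 and 45 with hIFNb. The treated libraries were all above the untreated ones, by a narrow gap of 28 to 36. The rise of 0.86 ± 0.23 passed narrowly (limma, adjusted p = 0.0449) and was lost without each library but that of control clone 4 untreated (adjusted p from 0.076 to 0.14), after centring on the median (0.0522) and after quantile normalisation (0.0567). Both the first and the internal start of JAK1 had more of the mark with hIFNb in every clone.

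Other parts of JAK1 had the opposite sign. The peak 167.5 kb from the start (chr1:64893171-64907374) scored 157 and 115 in control clones untreated, 90 and 99 with hIFNb, 232 and 183 in IRF1-guide clones untreated and 141 and 124 with hIFNb. The value was lower with hIFNb in all 4 clones, by -0.57 ± 0.16 (limma, adjusted p = 0.0526), and passed with the clone as a block (adjusted p = 0.000223), with a pseudocount of 8 (0.0464), after centring on the median (0.0375) and with the ending of the column names (R1 or R2) as a block (0.0179), an alternative added after the data had been seen. The peak 151.5 kb from the start, at the start of the non-coding gene LOC100130270, scored 55 and 45, 33 and 38, 87 and 94, and 62 and 65 in the same order of groups. It too was lower in all 4 clones (-0.49 ± 0.17, limma, adjusted p = 0.106, and 0.0148 with the clone as a block). At 65.1 kb, at the start of LINC01359, scores were 22 and 9, 35 and 38, 30 and 21, and 39 and 26 in that order, a change of 0.82 ± 0.30 (limma, adjusted p = 0.121, and 0.00826 with the block). The remaining JAK1 peaks, at 80.9, 86.0 and 203.6 kb, did not pass over all clones in either fit. In IRF1-guide clones the peaks at 80.9 and 86.0 kb were lower with the clone as a block (limma, adjusted p = 0.0229 and 0.0391), the first of them on scores of only 0 to 11.

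**Figure D3:**
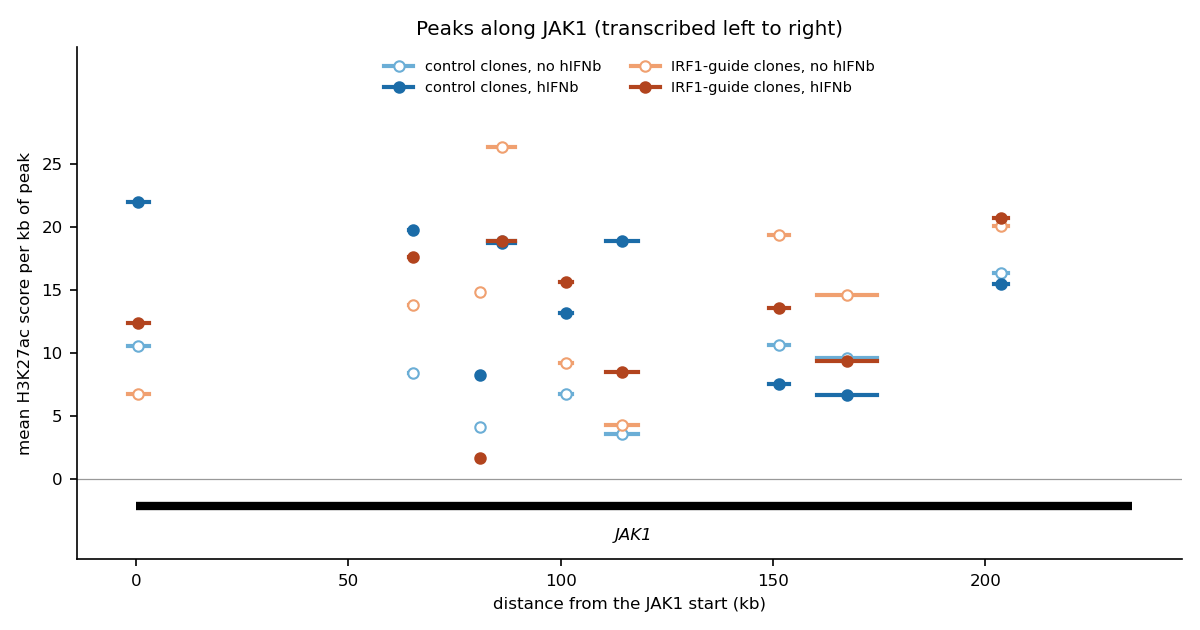
Mean H3K27ac score per kb of peak (vertical axis) at the 9 peaks along JAK1, against distance from the first JAK1 start in kb (horizontal axis), for the 4 groups of 2 clones; horizontal lines span each peak and the black bar is the gene. The peaks at 0.4, 101.2 and 114.4 kb were higher with hIFNb in both kinds of clone, and those at 151.5 and 167.5 kb lower.

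JAK2, the kinase of the interferon gamma receptor and of many cytokine receptors, had 1 peak, at its promoter (chr9:4983864-4987862), in a gene of 145.6 kb (4984390 to 5129948, plus strand). It scored 41 and 31 in control clones untreated and 113 and 82 with hIFNb, and 32 and 38 in IRF1-guide clones untreated and 51 and 39 with hIFNb. Control clones gained at least 51 score units each, and in IRF1-guide clone 13 the gain was 1. Treated and untreated libraries overlapped over all clones because of clone 13. The rise was 0.88 ± 0.21 over all clones (limma, adjusted p = 0.0267) and 1.41 ± 0.29 in control clones (adjusted p = 0.0233), and the change was 0.35 ± 0.29 in IRF1-guide clones (adjusted p = 0.661). The first call was lost without control clone 1 with hIFNb (limma, adjusted p = 0.103), control clone 4 untreated (0.0896), or clone 11 treated (0.0979) or untreated (0.0808), and the call in control clones when any 1 control library was left out (0.0646 to 0.178) or the 4 control libraries were fitted alone (0.0624). The difference between the 2 responses, -1.06 ± 0.41, did not pass (limma, adjusted p = 1).

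TYK2, the kinase held by IFNAR1, had low scores at its promoter (chr19:10379781-10381563). They were 34 and 18 in control clones untreated, 30 and 31 with hIFNb, 24 and 36 in IRF1-guide clones untreated and 29 and 17 with hIFNb. Clones 4 and 11 went up, clones 1 and 13 down, and the change was -0.05 ± 0.28 (limma, adjusted p = 0.934). A peak 22.0 kb upstream, at the start of MIR1181, scored 31 to 45 untreated and 45 to 54 with hIFNb (0.39 ± 0.21, limma, adjusted p = 0.272).

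STAT3 (chromosome 17, 42313324 to 42388442, minus strand) had a peak inside the gene that rose. This peak, 49.2 kb from the start (chr17:42337563-42340944), scored 17 and 11 in control clones untreated and 75 and 53 with hIFNb, and 10 and 17 in IRF1-guide clones untreated and 25 and 18 with hIFNb. All libraries with hIFNb were above all untreated ones, although clone 13 moved by a single score unit. The rise was 1.39 ± 0.28 over all clones (limma, adjusted p = 0.013) and 2.12 ± 0.40 in control clones (adjusted p = 0.0149), with a change of 0.66 ± 0.40 in IRF1-guide clones (adjusted p = 0.523). The difference between the responses was -1.46 ± 0.56 (limma, adjusted p = 1). Over all clones the call was lost without clone 1 (0.0623) or clone 11 (0.0555) with hIFNb, and in control clones without clone 1 (0.134) or clone 4 (0.0588) with hIFNb or clone 4 untreated (0.101).

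At the STAT3 promoter (chr17:42385902-42393033) the score was 131 and 160 in control clones untreated, 148 and 145 with hIFNb, 124 and 121 in IRF1-guide clones untreated and 185 and 184 with hIFNb. The IRF1-guide clones went up by 61 and 63 score units, while 1 control clone went up and the other down. The change over all clones was 0.30 ± 0.14 (limma, adjusted p = 0.193, and 0.0237 with the clone as a block). In IRF1-guide clones it was 0.59 ± 0.19 (limma, adjusted p = 0.237, and 0.00641 with the block), and in control clones 0.02 ± 0.19 (adjusted p = 0.976). The other 4 STAT3 peaks did not pass over all clones in either fit. The nearest of these, 9.5 kb from the start, scored 111 and 104 in control clones untreated and 159 and 147 with hIFNb, against 70 and 98 and then 80 and 95 in IRF1-guide clones, and passed in control clones only with the clone as a block (0.51 ± 0.23, limma, adjusted p = 0.264, and 0.024 with the block).

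**Figure D4:**
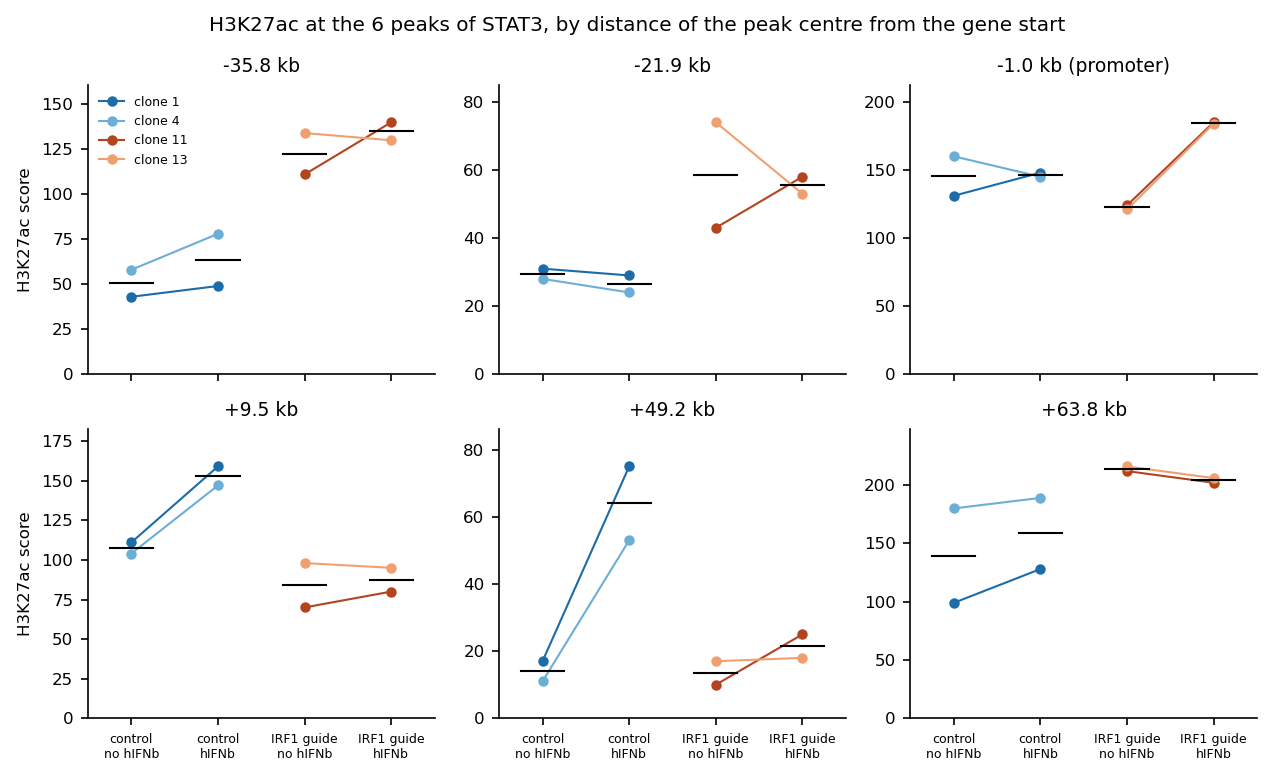
H3K27ac scores (vertical axes, each from 0) at the 6 peaks of STAT3, titled by the distance of the peak centre from the gene start, in control and IRF1-guide clones without and with hIFNb; points joined by a line are 1 clone and black bars are means of 2 clones. The peak at +49.2 kb reached 75 and 53 in control clones with hIFNb and 25 and 18 in IRF1-guide clones, and at -35.8 kb all IRF1-guide libraries (111 to 140) were above all control libraries (43 to 78).

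None of the promoter peaks of the receptor chains passed the test over all clones, and the peak nearest the IFNGR2 start passed with the clone as a block. IFNAR1 (chr21:33324022-33326985) scored 59 and 84 in control clones untreated, 70 and 74 with hIFNb, 78 and 91 in IRF1-guide clones untreated and 91 and 93 with hIFNb (0.08 ± 0.17, limma, adjusted p = 0.812). IFNAR2 (chr21:33229561-33232814) scored 22 and 33, 38 and 42, 27 and 47, and 39 and 54 in the same order. It was higher in 4 of 4 clones, without passing the test (0.45 ± 0.25, limma, adjusted p = 0.284). IFNGR1 (chr6:137218041-137220149) scored 17 and 22, 22 and 22, 27 and 38, and 30 and 45 (0.18 ± 0.24, limma, adjusted p = 0.668). The peak nearest the IFNGR2 start (chr21:33403677-33405819) scored 34 and 30, 53 and 31, 32 and 21, and 38 and 58. It was higher in 4 of 4 clones, by 1 score unit in control clone 4 (0.58 ± 0.26, limma, adjusted p = 0.184, and 0.0304 with the clone as a block).

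Away from the starts, the receptor genes had a rise at IFNGR2. The peak 32.1 kb from its start, at the downstream end of the gene (chr21:33432962-33437001), scored 49 and 52 in control clones untreated, 93 and 81 with hIFNb, 58 and 63 in IRF1-guide clones untreated and 90 and 90 with hIFNb. Every treated library was above every untreated one, and the 2 kinds of clone reached like values. The rise was 1.59-fold (0.67 ± 0.16, limma, adjusted p = 0.0279), yet the call did not survive the removal of any 1 of the 8 libraries (0.053 to 0.0949). The peak inside IFNAR1 that also lies within 50 kb of IFNGR2 (chr21:33354516-33355909) scored 13 and 12 in control clones untreated, 32 and 27 with hIFNb, 2 and 6 in IRF1-guide clones untreated and 8 and 10 with hIFNb. It was higher with hIFNb in each clone (1.14 ± 0.34, limma, adjusted p = 0.0627, and 0.00773 with the clone as a block, 0.0352 with a pseudocount of 8). Its scores were lower throughout in IRF1-guide clones, at 2 to 10, a difference that did not pass on clone means (-1.58 ± 0.40, limma, adjusted p = 0.114).

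Lower values with hIFNb that passed only with the clone as a block were seen at the peak 16.8 kb upstream of IFNGR1 and the peak 24.1 kb upstream of IFNGR2. The IFNGR1 peak (chr6:137232703-137239736) scored 80 and 83 in control clones untreated, 45 and 71 with hIFNb, 81 and 136 in IRF1-guide clones untreated and 62 and 115 with hIFNb (-0.41 ± 0.25, limma, adjusted p = 0.333, and 0.0189 with the block). The IFNGR2 peak (chr21:33371840-33385647) had the highest scores of the 35 and lay between 305 and 336 untreated and between 221 and 306 with hIFNb (-0.26 ± 0.13, limma, adjusted p = 0.239, and 0.0137 with the block). Of the remaining receptor peaks, those at -26.0, -13.8 and 38.4 kb from IFNAR2, -36.8 kb from IFNAR1 and -40.5, 12.0 and 42.0 kb from IFNGR2, none passed over all clones in either fit. The IFNAR2 peak at 38.4 kb is the promoter of the next receptor gene, IL10RB, and scored 52 to 60 untreated and 59 to 74 with hIFNb.

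**Figure D5:**
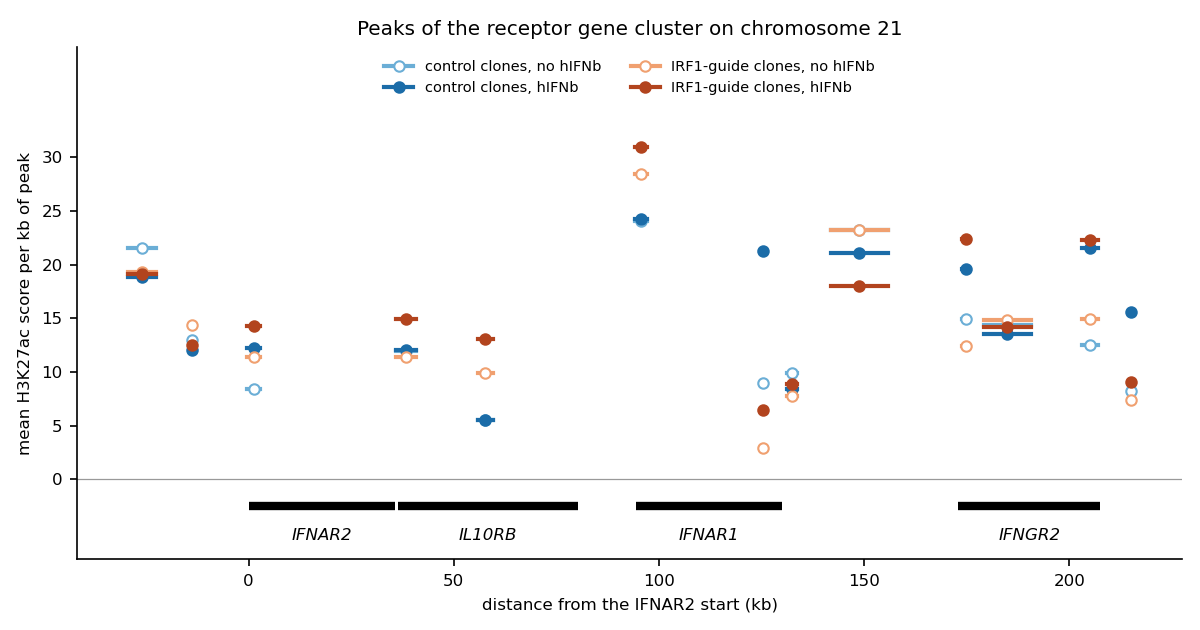
Mean H3K27ac score per kb of peak (vertical axis) at peaks of the chromosome 21 cluster that holds IFNAR2, IL10RB, IFNAR1 and IFNGR2, against distance from the IFNAR2 start in kb (horizontal axis), for the 4 groups of 2 clones; horizontal lines span each peak and black bars are genes. The peak inside IL10RB is the one counted for IFNAR1 at -36.8 kb, and the peak near the downstream end of IFNGR2 was higher with hIFNb in both kinds of clone.

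When all peaks of a gene were summed, the change per gene was small for most. The log2 change of the summed score, tested by a two-sided exact permutation of 4 libraries with hIFNb against 4 without (smallest possible p = 0.0286), was 0.88 at STAT2 (exact p = 0.0286, adjusted over the 9 genes 0.257) and 0.88 at JAK2 (exact p = 0.0571, adjusted 0.257). It was 0.25 at STAT3, 0.24 at IFNAR1, 0.20 at TYK2, 0.11 at JAK1, 0.05 at IFNAR2, -0.26 at IFNGR1 and 0.00 at IFNGR2. STAT2 was thus at the smallest p this permutation allows, which did not pass once adjusted over 9 genes, so the test could not call it. The permutation exchanged all 8 libraries freely and took no account of the pairing by clone. Its summed score went up in each clone, from 192 to 365, 161 to 374, 217 to 379 and 176 to 265 in clones 1, 4, 11 and 13.

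Within control clones alone 5 of the 35 peaks rose with hIFNb and none fell, against 4.07% and 0.676% of all peaks (4.74% called). Within IRF1-guide clones 1 rose, the STAT2 promoter, and none fell, against 1.2% and 0.025% (1.22% called). The 5 were the promoters of STAT2, JAK1 and JAK2, the JAK1 peak at 114.4 kb and the STAT3 peak at 49.2 kb. No peak of the 35 differed between the 2 responses, nor did any of all peaks (0.0% called), although 4 of the 35 had an unadjusted p under 0.05 against 3.94% of all peaks. These 4 were the JAK1 peaks at 114.4 and 80.9 kb, the JAK2 promoter and the STAT3 peak at 49.2 kb, each with the lower response in IRF1-guide clones. A call in control clones and none in IRF1-guide clones therefore does not show different responses at any of them in this fit. With the clone as a block, 10 of the 35 rose and 2 fell in control clones, against 13.4% and 11.3% of all peaks. Calls gained there and not given above were the JAK1 peaks at 65.1 kb (limma, adjusted p = 0.00449), 101.2 kb (0.0166) and, lower, 167.5 kb (0.0183), the IFNGR2 peak at 32.1 kb (0.00428) and, lower, the IFNGR1 peak at -16.8 kb (0.0465). In IRF1-guide clones 4 rose and 4 fell with the block, against 7.44% and 6.64%. Those gained and not given above were falls of the JAK1 peak at 167.5 kb (limma, adjusted p = 0.0065) and the IFNGR2 peak at -24.1 kb (0.0245), and the single difference of responses that passed with it, at JAK1, stands against 0.657% of all peaks called lower.

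Between the genotypes, no peak of the 35 passed without hIFNb (0.0% of all peaks called), with hIFNb (2.43%) or on clone means (0.516%). Unadjusted p was under 0.05 in limma for 8, 10 and 10 of the 35 in these comparisons, against 12.0%, 16.3% and 14.7% of all peaks. With hIFNb the JAK2 promoter scored 45.0 ± 8.5 in IRF1-guide clones and 97.5 ± 21.9 in control clones (SD, n = 2 each), a log2 difference of -1.09 ± 0.29 (SE, limma, adjusted p = 0.0857). The STAT3 peak at 49.2 kb scored 21.5 ± 5.0 against 64.0 ± 15.6 (-1.53 ± 0.40, limma, adjusted p = 0.0759), and the JAK1 peak at 114.4 kb 62.5 ± 27.6 against 139.0 ± 26.9 (-1.20 ± 0.33, adjusted p = 0.0954). The JAK1 promoter scored 61.5 ± 0.7 against 109.0 ± 4.2 (-0.81 ± 0.24, limma, adjusted p = 0.109). It was already lower in untreated IRF1-guide clones, at 33.5 ± 3.5 against 52.5 ± 2.1 (-0.64 ± 0.24, limma, adjusted p = 0.328). At each of these 4 peaks both IRF1-guide libraries were below both control libraries. That was so at 9 of the 35 peaks, while at 11 of the 35 both were above. The share over all peaks is not given here, so these counts are no result about the 35. Other peaks had the opposite sign: the one 35.8 kb upstream of STAT3, with the smallest adjusted p of the 35, scored 135.0 ± 7.1 against 63.5 ± 20.5 (1.11 ± 0.28, limma, adjusted p = 0.0677), and the one 36.8 kb upstream of IFNAR1 scored 39 and 55 against 20 and 20 (1.17 ± 0.32, adjusted p = 0.0901). These calls turned on the fit. With the column ending as a block, 6 peaks passed with hIFNb (limma): JAK2 (adjusted p = 0.0362), STAT3 at 49.2 kb (0.0429), 9.5 kb (0.0495) and -35.8 kb (0.019), JAK1 at 114.4 kb (0.0443) and IFNAR1 at -36.8 kb (0.049). With a pseudocount of 8, STAT3 at 49.2 kb (0.0337) and -35.8 kb (0.0461) and the peak shared by IFNAR1 and IFNGR2 (0.032) did.

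Over all 8 libraries, 6 of the 35 peaks were higher in every IRF1-guide library than in every control library and 2 were lower, against 3.79% and 5.08% of all peaks. The clearest was a peak 35.8 kb upstream of STAT3, at the start of LOC102725238 (chr17:42419270-42429198). It scored 43, 58, 49 and 78 in control libraries and 111, 134, 140 and 130 in IRF1-guide libraries. The difference of clone means was 1.19 ± 0.25 (limma, adjusted p = 0.0768). The STAT3 peak 21.9 kb upstream followed the same order (31, 28, 29 and 24 against 43, 74, 58 and 53), as did STAT3 at 63.8 kb, JAK1 at 151.5 kb, IFNAR1 at -36.8 kb (19 to 21 against 30 to 55) and the IFNGR1 promoter (17 to 22 against 27 to 45). The 2 lower peaks were STAT3 at 9.5 kb and the peak shared by IFNAR1 and IFNGR2. On clone means the adjusted p of the 8 peaks ran from 0.0768 to 0.376 (limma), so none passed. Along STAT3, the 2 upstream peaks and the one at 63.8 kb scored higher in IRF1-guide libraries and the one at 9.5 kb lower, without passing. At 63.8 kb control clone 1 scored 99 untreated and 128 with hIFNb, and control clone 4 scored 180 and 189. The IRF1-guide libraries scored 202 to 216 there, so control clone 4 lay close to them.

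At other genes of the same pathway, 4 of 23 promoter peaks rose with hIFNb and none fell (17.4%). Of all peaks, at promoters or not, 6.55% were higher. The IL10RB peak among the 23 is also the IFNAR2 peak at 38.4 kb. Of 6 other JAK, STAT and partner genes, 3 had a promoter peak and 1 rose with hIFNb: IRF9, the partner of STAT2, by 1.34 ± 0.16 (limma, adjusted p = 0.000695), with a median of 0.28 over the 3. Of 18 other receptor genes that signal through JAKs, 11 had a promoter peak and 1 rose, IL15RA, by 0.62 ± 0.13 (limma, adjusted p = 0.0172), with a median of 0.20. LIFR, a receptor chain of interleukin-6 family cytokines, was the single promoter of these lists that passed between genotypes with hIFNb, and it was lower in IRF1-guide clones (-1.10 ± 0.17, limma, adjusted p = 0.0127). Of 13 inhibitor genes, 9 had a promoter peak and 2 rose. These were SOCS1, which blocks JAK activity, by 2.31 ± 0.19 (limma, adjusted p = 0.000115) and USP18, which binds IFNAR2 and dampens its signal, by 1.65 ± 0.20 (adjusted p = 0.000843). RSAD2, ISG15 and IRF9, used as interferon-responsive references, all rose, by 3.52, 1.13 and 1.34, while GAPDH (0.07 ± 0.12, limma, adjusted p = 0.777) and ACTB (0.15 ± 0.19, adjusted p = 0.671) did not pass.

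Among 9428 peaks (9429 for IFNGR2) at starts of other genes with a mean score of at least 20, those most like each promoter peak were found by Pearson correlation of log2 scores over the 8 libraries. As a description, STAT2 was most like NSFL1C and SERTAD4-AS1 (r = 0.989 for both), JAK1 like ETV7-AS1 (0.997) and E2F7 (0.992), and JAK2 like USP30-AS1 (0.986) and ENDOD1 (0.984). STAT3 was most like JAKMIP3 (0.967) and PTRHD1 (0.953), and TYK2 like CRACR2A (0.945) and HTRA2 (0.929). IFNAR1 was most like CAMSAP2 (0.965) and USP24 (0.957), IFNAR2 like UBXN8 (0.975) and LOC107984790 (0.968), IFNGR1 like MBOAT4 and PIK3R2 (0.980 for both), and IFNGR2 like SEC22A (0.954) and HSP90AB1 (0.952). All peaks share the 8 libraries, and the best of so many correlations is high by selection.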

How the data were processed

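The submitters' processing notes name Bowtie2 and the build GRCh38 (hg38). The aligner's version, and how peaks were called, counted and scaled, is information not given in the sources used here. Values deposited are scores, 1 per peak and library, which the authors normalised and rounded to whole numbers. They are not raw counts, so no count model was used, and the depth of each library is unknown. In 6 columns 10 to 30 whole numbers no higher than 100 never occur, and 0 are missing in the 2 columns of untreated control clones. Whether those 2 columns were scaled in another way was not tested.

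Scores were analysed as log2(score + 1) in limma 3.58.1 (R 4.3.3) with 4 group means, empirical Bayes moderation along a mean-variance trend. P-values were adjusted by Benjamini-Hochberg over 31961 peaks. A fold is on the log2(score + 1) scale, which understates the change at low scores. Errors of log2 changes are SE. Genotypes were also compared on the means of each clone's 2 libraries. The pairing by clone comes from the labels, since both libraries of a number are the same clone. In the scores, a clone's treated and untreated libraries deviated together from their groups' means (correlation over peaks 0.437 in control and 0.392 in IRF1-guide clones). The fit with the clone as a block is given where it changed a call.

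Peaks came from the linking rule described above, and all 9 genes are named. Full values are given for promoter peaks and for peaks called in a comparison, and others were named after their values were seen. The genes and lists were chosen with earlier results of these data known. The 2 genotypes share no clone, the genotype comparisons with hIFNb and without it share clones, and the responses over all clones and by genotype share libraries. A leukocyte marker is not reported here. The limma fit of the response over all clones was run on simulated scores without clone effects. That run did not cover the clone block or the other comparisons. Promoter sequences and gene positions came from RefSeq on GRCh38.p14, with no entry for IFNAR2 in the sequence table.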

Additional observations from a re-analysis of the deposited data

Results flagged for a closer look

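The hIFNb response of the JAK1 peak at chr1:64949618-64956984, 114.4 kb into the gene, differed between the genotypes in the fit with the clone as a block. The response in IRF1-guide clones minus that in control clones was -1.43 ± 0.33 in log2 units (SE, limma, adjusted p = 0.0335). Without the block the same difference had an SE of 0.47 and did not pass (limma, adjusted p = 1). Both control clones gained more than either IRF1-guide clone, from 28 to 120 and 25 to 158 against 35 to 82 and 28 to 43. With 2 clones per genotype, a difference between the guides and one between these clones cannot be told apart.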

How the results depend on the processing

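Of the 35 peaks, the number called with hIFNb over all clones was 7, and 15 with the clone as a block (11 higher, 4 lower). It was 9 with a pseudocount of 8 (8 higher, 1 lower), 7 after median centring (6 higher, 1 lower), 6 after quantile normalisation and 10 with the column ending as a block (9 higher, 1 lower), and the lower peak was JAK1 at 167.5 kb each time. It was 3 to 6 when 1 library was left out, with 3 without the treated library of control clone 1 or of clone 11. For control clones the 5 calls became 12 with the block, 2 to 5 without 1 library and 3 with the 4 control libraries alone. In IRF1-guide clones the 1 call became 8 with the block, 0 to 1 without 1 library (0 without clone 11 with hIFNb) and 0 with the 4 IRF1-guide libraries alone. For the difference between the responses the block gave 1 call in place of 0. Between genotypes with hIFNb, 0 calls became 3 with a pseudocount of 8, 1 after median centring, 1 after quantile normalisation and 6 with the column ending (R1 or R2) as a block. That last fit, chosen after seeing the data, gave 1 call in place of 0 without hIFNb. The peak 35.8 kb upstream of STAT3 was among the calls under each of these genotype alternatives. The cause of these changes was not tested. The clone block changed no call other than those given in the report. Summed over a gene's peaks, TYK2 went from 0.20 to -0.05, IFNGR1 from -0.26 to 0.18 and IFNGR2 from 0.00 to 0.58 with the promoter peak alone. Leaving out 1 library moved IFNGR2 between -0.043 and 0.087, IFNAR2 between -0.027 and 0.10, IFNGR1 between -0.50 and -0.08, JAK1 between 0.01 and 0.20 and STAT3 between 0.14 and 0.34. It moved the IFNAR2 promoter between 0.26 and 0.65, the IFNGR1 promoter between 0.04 and 0.33, the TYK2 promoter between -0.27 and 0.17 and the IFNAR1 promoter between -0.047 and 0.20. Depth is unknown, so no counting interval could be given, and low peaks such as JAK1 at 80.9 kb rest on scores of 11 or less.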
